A study of Rattus norvegicus with 8 samples.

Results

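The genes described here code for the parts and motors of microtubules: alpha, beta and gamma tubulins, tektins, kinesins with their light chains, and dynein chains. They were taken from the array by symbol. A probe set is a group of probes on the array that reads the transcripts of a gene, and a member is a probe set with exactly 1 gene symbol beginning with Tuba, Tubb, Tubg, Tekt, Kif, Klc, Dnah, Dnai, Dnal, Dync or Dynl and a signal of at least 50 on at least 2 arrays. This gave 104 probe sets of 78 genes, out of 14217 genes and 31042 non-control probe sets on the array, of which 19808 probe sets reached the same minimum and were tested. Another 19 probe sets with such symbols stayed below the minimum, and 4 genes (Kif1a, Kif1b, Kif1c and Kif6) were left with no member. Of these 19, the nearest to the minimum had a second-highest signal of 48.9 (Kif16b), just outside, while the dimmest Kif26b member had 51.9, just inside. A further 10 probe sets whose several symbols included one of these names were not used, among them those read in common by Tuba1a, Tuba1b and Tuba1c.

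Whole testes of adult Sprague-Dawley rats were profiled on 8 arrays of the Affymetrix Rat Genome 230 2.0 design. The 3 groups were untreated control (n = 3), 8 h after Adjudin (n = 2) and 4 d after Adjudin (n = 3), where Adjudin is a compound known to loosen germ cells from Sertoli cells, given once by gavage at 50 mg/kg body weight. No vehicle-treated group is named, no other genotype or agent is named, and the labels' description calls all 8 samples normal testis, so groups were taken from the titles. Whether every array stands for its own animal is not said in the labels, so the p-values describe the spread of these samples alone, and that spread may be technical. The settings files show 3 hybridisation runs: the first (run 1) with control 1, 8 h 1 and 4 d 1, the second (run 2) with control 2 and 4 d 2 only, and the third (run 3) with control 3, 8 h 2 and 4 d 3. In those files the sample type of both run 2 arrays reads mouse, while the chip type and the labels name rat. Results are therefore given with the run as a block, and without run 2, where that changes them.

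Microtubules are tubes of alpha and beta tubulin that grow from a gamma-tubulin ring. Kinesins and cytoplasmic dynein carry cargo along them in opposite directions, while axonemal dyneins bend the microtubule doublets of the sperm tail. Tektins are filament proteins that run inside the wall of those doublets. In the testis these genes serve meiotic spindles, the manchette that shapes the spermatid head, the growing flagellum, and the microtubule tracks of Sertoli cells along which spermatids are moved.

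Across the series, 51.7% to 59.0% of non-control probe sets reached a signal of 50 on an array, and arrays of 1 group correlated at r = 0.954 to 0.978 over probe sets. Marker lists of testis cell types gave the setting at 4 d against control. Of 14 elongating and elongated spermatid markers, 7 fell and 0 rose (summed signal of 147198 to 217005 over control arrays, 152005 to 195610 over 8 h arrays and 102096 to 141795 over 4 d arrays), and so did 5 of 8 round spermatid markers, with 0 higher. Of 15 Sertoli cell markers 5 rose and 1 fell (summed signal of 17021 to 19463 over control arrays and 31610 to 41624 over 4 d arrays), and 8 of 11 leukocyte markers rose with 0 lower (1506 to 1735 against 5034 to 6670), while Itgam and Cd3e stayed below the minimum. None (0) of 6 spermatocyte markers passed in either direction. Of 10 Leydig cell markers 2 rose and 0 fell (summed signal of 7560 to 10443 over control arrays and 11103 to 17617 over 4 d arrays), and 1 of 9 peritubular and smooth muscle markers rose with 0 lower (3208 to 3288 against 3450 to 4719). None (0) of 6 endothelial and 3 spermatogonial markers passed. The endothelial sum was 404 to 490 over control arrays and 585 to 707 over 4 d arrays, and the peritubular median difference was -0.13. With the run as a block, 14 elongating and 7 round spermatid markers fell and 0 rose. There 8 Sertoli cell markers rose and 2 fell, as did 5 and 1 of Leydig, 3 and 1 of peritubular, and 10 and 0 of leukocyte markers. Of endothelial and spermatogonial markers 1 each rose. Of all probe sets 13.3% rose and 9.17% fell there. Of 6 markers of the ciliated epithelium of the rete and efferent ducts, another source of axonemal RNA, Foxj1, Cfap126 and Dynlrb2, itself a member, were measured. Their summed signal was 5424 to 7025 over control arrays and 4326 to 5406 over 4 d arrays, and their median difference was -0.33. Without a block 0 passed, and with the run as a block 1 was lower, which was Dynlrb2. Dynlrb2 alone had 3570 to 4763 over control arrays and 2839 to 3241 over 4 d arrays. The sum and the call of this list are thus largely those of a member. The other 3, Scgb1a1, Sec14l3 and Tppp3, stayed below the minimum with highest signals of 50.8, 42.2 and 29.0. In whole tissue, fewer cells of a type and less RNA per cell cannot be told apart, and the part of these cell types in the results below was not tested.

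The comparison of 4 d with control addressed what the testis expresses while germ cells are being lost, the subject of the series title. For 5 genes, 1 probe set rose: the beta tubulins Tubb6 and Tubb5, the dynein light chains Dynlt3 and Dynlrb1, and the cytoplasmic dynein light intermediate chain Dync1li2. For 5 others, 1 fell: the microtubule depolymerase Kif2c, the dynein light chain Dynlt5, the kinesin light chain Klc3, the alpha tubulin Tuba4a, and Kifap3, the adaptor subunit of kinesin-2. In limma with Benjamini-Hochberg adjustment over all 19808 probe sets, 5 of 104 members were higher (4.81%, against 6.13% of all probe sets tested) and 5 were lower (4.81%, against 3.71%), at a threshold of 0.05. Tubb6 is among the 5 that rose, but none of its control arrays reached the signal minimum (the same held for 1 probe set of Kif26b), so it became a member through treated arrays alone, and 4 members rose without it. Both shares lie near the background, so the counts of this fit do not set the members apart. The median difference of the members was -0.09 on the log2 scale, with 38 above 0 and 66 below, and that of all probe sets tested was 0.04. The median was -0.10, -0.07 and -0.09 within runs 1, 2 and 3.

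Because arrays of the same run deviated together from their group means, the fit with the run as a block was also read. There 9 members were higher (8.65%, against 13.3% of all probe sets tested) and 19 lower (18.3%, against 9.17%). These 28 probe sets belong to 26 genes. By the signals alone, all 4 d arrays lay above all control arrays for 9 members (8.65%, against 17.4%) and below them for 18 (17.3%, against 11.8%). Tubb6, a member through treated arrays alone, is among the 9 of each reading. In both readings the share of lower members was above the background and that of higher members below it, a difference that was not tested. Without run 1, no member (0) passed the threshold in either direction, and of everything tested 0.813% was higher and 0.283% lower. At an unadjusted p under 0.05, 8 members were then higher and 9 lower, against 8.81% and 4.99% of all probe sets. Without run 2, only Tubb6 was called higher and only Kif2c lower, against 1.76% and 0.848% of all probe sets. So few calls over 104 members lie near the background in both cases.

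**Figure D1:**
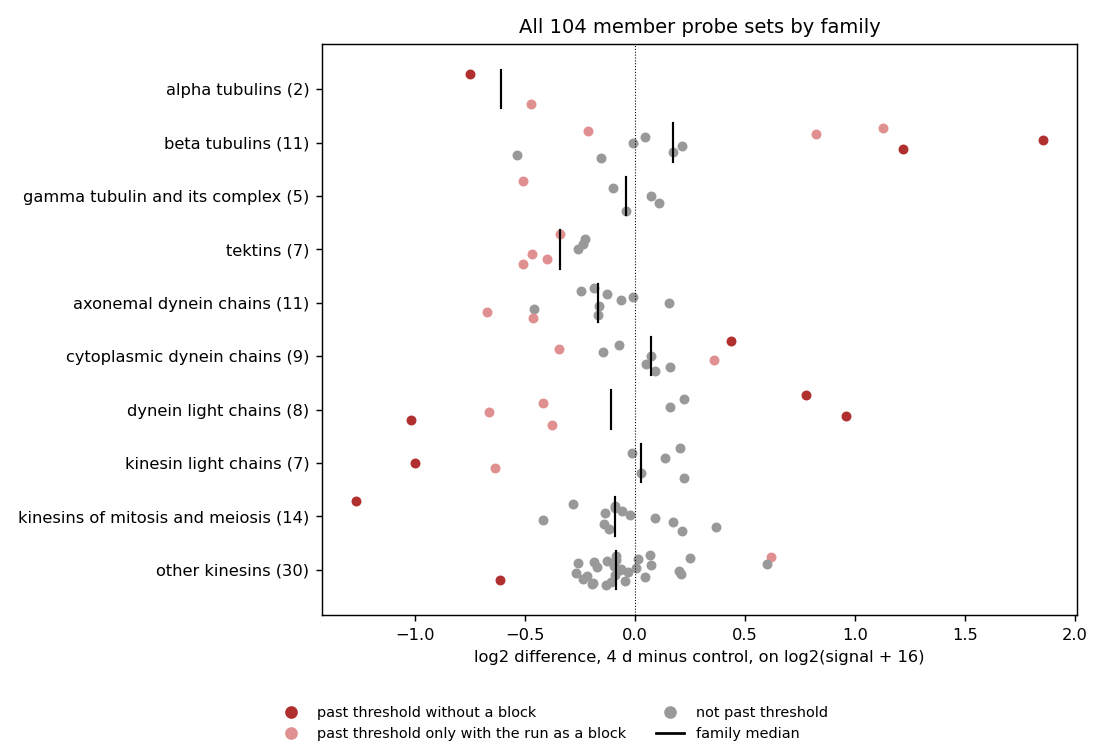
Log2 difference of 4 d minus control on log2(signal + 16) for all 104 member probe sets, 1 row per family with its number of probe sets, each point a probe set and each black line the family median. Dark red points passed the threshold without a block, pale red points only with the run as a block. All 7 tektins and both alpha tubulins lie below 0, while the 4 points above 0.8 in the beta tubulin row are 2 probe sets of Tubb5 and 1 each of Tubb3 and Tubb6.

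The start of each gene was read in the RefSeq promoter table of the GRCr8 assembly, which holds 68 of the 78 member genes and 8 of the 10 named above. Dynlrb1 and Dynlt3, which both rose, have no entry in it. The windows to print were chosen after short motifs were seen in them, so they set no contrast between genes that rose and fell. The 150 bases before the start are printed for 5 of the genes that fell and, of those that rose, for Tubb5 alone, because most of the former share a short motif that the latter lacks. They lie at chr5:135899213-135899362 (minus strand) for Kif2c, chr13:78671151-78671300 (plus strand) for Kifap3, chr1:88183423-88183572 (minus strand) for Klc3, chr9:84162585-84162734 (minus strand) for Tuba4a, chr5:122971423-122971572 (plus strand) for Dynlt5 and chr20:2917427-2917576 (plus strand) for Tubb5. All are written 5′ to 3′ on the strand of the gene and end at the base before the annotated start. Capitals mark TGACG or its complement CGTCA, the half-site of the cyclic AMP response element to which CREB and CREM bind, and CCAAT or its complement ATTGG, the CCAAT box.
Kif2c: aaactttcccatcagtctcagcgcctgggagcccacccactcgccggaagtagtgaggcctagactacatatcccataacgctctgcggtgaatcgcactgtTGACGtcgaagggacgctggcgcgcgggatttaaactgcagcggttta
Kifap3: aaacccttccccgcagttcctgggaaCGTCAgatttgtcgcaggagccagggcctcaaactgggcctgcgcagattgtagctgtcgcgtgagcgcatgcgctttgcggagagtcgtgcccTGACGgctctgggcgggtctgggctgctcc
Klc3: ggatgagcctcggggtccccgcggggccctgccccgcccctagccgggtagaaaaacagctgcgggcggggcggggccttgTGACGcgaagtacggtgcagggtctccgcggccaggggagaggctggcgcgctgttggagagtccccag
Tuba4a: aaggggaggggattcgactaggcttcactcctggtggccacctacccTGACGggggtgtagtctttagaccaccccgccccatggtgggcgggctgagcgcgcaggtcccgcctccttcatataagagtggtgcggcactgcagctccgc
Dynlt5: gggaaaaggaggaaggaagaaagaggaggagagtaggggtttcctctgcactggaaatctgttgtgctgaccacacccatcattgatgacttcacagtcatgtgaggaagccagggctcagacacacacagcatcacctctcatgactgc
Tubb5: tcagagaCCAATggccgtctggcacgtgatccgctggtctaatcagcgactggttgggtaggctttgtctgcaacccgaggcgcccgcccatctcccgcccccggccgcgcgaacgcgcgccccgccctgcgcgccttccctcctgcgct

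The half-site begins 48 bases before the start in Kif2c, 69 in Klc3 and 103 in Tuba4a, and Kifap3 has 1 on each strand. The Dynlt5 window holds neither motif. Dync1li2 and Tubb6, which rose, also have a promoter in the table but are not printed. The Dync1li2 window holds neither motif, and that of Tubb6 holds ATTGG without the half-site. TGACG, searched on both strands, was found in 18 of 68 member genes (26.5%) and in 13.4% of all 33469 promoters of the table. Among the 16 genes with a promoter and a probe set lower in the blocked fit 8 held it, and among the 6 with one higher 0 did. The full element TGACGTCA, which contains the half-site, was found in 4 of 68 members (1.36% of all promoters) and in 0 of those 16. CCAAT, also on both strands, was found in 18 of 68 member genes (26.5%) and in 23.5% of all promoters. It was in 5 of the 6 (Tubb3, Tubb5, Tubb6, Dync1i2 and Kif5b) and 2 of the 16. Tubb6 became a member through treated arrays alone, so its place among the 6 is a description only, for both motifs. The half-site GTTGCC of the X-box, to which RFX factors bind, was found in 10 of 68 member genes (14.7%) and in 6.38% of all promoters. It was in 5 of the 16 (Tuba8, Dynlt2b, Tekt1, Tekt2 and Tektl1) and 1 of the 6. The member windows were richer in G and C than the rest (median 64% against 52.7%), these groups were formed from the measured differences, and the matches are a description with no test.

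The family counts below stand beside 6.13% of all probe sets higher and 3.71% lower without a block, and 13.3% and 9.17% with it. No family was tested against these shares. Both measured alpha tubulins were lower at 4 d. Tuba4a, an alpha tubulin isotype (probe set 1371542_at), had signals of 3194, 3205 and 3545 in the controls, 3257 and 3836 at 8 h, and 1909, 1933 and 2046 at 4 d. The 3 arrays at 4 d lay well below all 5 others, which overlapped. Its level was 3315 ± 199 (SD, n = 3) in the controls and 1963 ± 73.1 (SD, n = 3) at 4 d, a log2 difference of -0.75 (SE 0.11, adjusted p = 0.00366, limma). Tuba8, the other isotype with a member, had signals of 3277, 3456 and 4321 in the controls, 3472 and 4131 at 8 h, and 2399, 2539 and 2984 at 4 d. Its difference of -0.47 did not pass (adjusted p = 0.0761, limma) but passed in the blocked fit (adjusted p = 0.000632, limma). Its arrays at 4 d lay below all others, and run 3 gave the highest signal of every group.

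Of 11 beta tubulin probe sets of 8 genes, 2 rose and 0 fell without a block, and 4 rose and 1 fell with it. Tubb6, a widely expressed beta tubulin (1376100_at), had signals of 33.8, 34.0 and 8.1 in the controls, 82.1 and 108 at 8 h, and 106, 124 and 149.8 at 4 d. The controls were dim, all below 50, with control 3 the lowest, and both treated groups lay above them. Since it passed the minimum through the treated arrays, its rise is given as a description, from a fit without any minimum: the log2 difference was 1.85 (adjusted p = 0.00943, limma), and it was 1.29, 1.49 and 2.78 within runs 1, 2 and 3. At such low control signals the difference depends on the constant added before the logarithm: it was 2.32 with 4 and 1.10 with 64 in place of 16. Tubb5, the common class I beta tubulin (1387892_at), had signals of 822, 831 and 402 in the controls, 773 and 613 at 8 h, and 1776, 1519 and 1339 at 4 d. All arrays at 4 d were above all others, and control 3 was the lowest. The level was 685 ± 246 (SD, n = 3) in the controls and 1545 ± 219 (SD, n = 3) at 4 d, a difference of 1.22 (SE 0.26, adjusted p = 0.0163, limma). This call was lost without 4 d 1 (adjusted p = 0.0728), without run 1 (adjusted p = 0.134) and without run 2 (adjusted p = 0.0733, limma).

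The second Tubb5 probe set, 1370290_at, had signals of 242, 323 and 124 in the controls, 246 and 162 at 8 h, and 610.2, 591 and 321 at 4 d. Its array at 4 d in run 3 lay just below control 2, so the groups overlapped, and its difference of 1.13 passed only with the run as a block (adjusted p = 0.0715 without and 0.00028 with it, limma). Tubb3, a beta tubulin of neurons that Sertoli cells also make, was read by 1371618_s_at, whose suffix marks probes shared by several transcripts, so its signal may include other tubulins. Its signals were 284, 267 and 160.5 in the controls, 239 and 159 at 8 h, and 586, 491 and 257 at 4 d. Each array at 4 d was above the control of its own run, by 1.00, 0.84 and 0.63 on the log2 scale in runs 1, 2 and 3, but 4 d 3 was below controls 1 and 2. The difference of 0.82 had an adjusted p of 0.144 without and 0.00181 with the block (limma).

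Tubb4b, the beta tubulin that builds axonemes in ciliated and flagellated cells, had signals of 11107, 10488 and 14585 in the controls, 10365 and 13575 at 8 h, and 9565, 9594 and 11841 at 4 d. It was lower at 4 d within each run, with log2 differences of -0.22, -0.13 and -0.30, but the groups overlapped, and it passed only with the block (adjusted p = 0.52 and 0.0139, limma). The other beta tubulins gave no call in either fit. Tubb1, a tubulin of platelets, had signals of 393, 422 and 325 in the controls, 336 and 343 at 8 h, and 397, 399.6 and 333 at 4 d. Tubb2a had 1072, 1486 and 929.9 in the controls, 963 and 1034 at 8 h, and 1399.5, 1205 and 964 at 4 d. Tubb2b had 39.1, 49.6 and 56.7 in the controls, 54.0 and 46.1 at 8 h, and 50.7, 54.8 and 63.8 at 4 d. In all 3 the groups overlapped. Tubb4a was read by 3 probe sets that did not move alike. Its 1384927_at had 138, 133 and 140.5 in the controls, 116 and 100 at 8 h, and 125, 207 and 162 at 4 d. Its 1393635_x_at, with probes that can bind other transcripts, had 158, 202 and 98 in the controls, 96.6 and 37.9 at 8 h, and 74.5, 179.7 and 63.8 at 4 d. Its 1398624_x_at, of the same kind, had 119, 137 and 67.4 in the controls, 149 and 79.2 at 8 h, and 87.5, 137 and 62.4 at 4 d. Their differences at 4 d were 0.21, -0.54 and -0.15, with overlapping groups in each.

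Of 5 gamma tubulin and gamma-tubulin complex probe sets, 0 passed without and 1 with the block. Tubg1, the gamma tubulin that seeds microtubules at centrosomes, had signals of 1368, 2004 and 2441 in the controls, 1742 and 2204 at 8 h, and 1180.1, 1204 and 1621 at 4 d. Control 1 lay below the highest array at 4 d, so the groups overlapped, while each array at 4 d was below the control of its run. The difference was -0.51 (SE 0.22, adjusted p = 0.195 without and 0.00827 with the block, limma), and it was -0.32 without control 3. The complex members Tubgcp2, Tubgcp3, Tubgcp4 and Tubgcp6 lay between -0.10 and 0.11.

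All 7 tektin probe sets had a lower mean at 4 d, from -0.51 for Tekt5 to -0.23 for Tekt5l1, with a median of -0.34. None (0) passed without a block, 3 had an unadjusted p under 0.05, and 4 passed with the block (Tekt1, Tekt2, Tekt5 and Tektl1). Of all 19808 probe sets, 1735 were lower at an unadjusted p under 0.05 and 1817 passed as lower with the block. Tekt5, a tektin of the sperm tail, had signals of 973, 1189 and 1008 in the controls, 1016 and 1192 at 8 h, and 724, 886 and 614 at 4 d. All arrays at 4 d were below all others, and the adjusted p was 0.0745 without and 0.0062 with the block (limma). Tekt1 had signals of 5997, 6364 and 8232 in the controls, 6019 and 8219 at 8 h, and 5040.5, 5261 and 5817 at 4 d. Tekt2 had 4567, 4722 and 7175 in the controls, 4671 and 6543 at 8 h, and 3501, 3902 and 4273 at 4 d. In both, run 3 gave the highest signal of each group and the 4 d arrays still lay below all controls. The adjusted p was 0.252 without and 0.00459 with the block for Tekt1, and 0.189 and 0.00326 for Tekt2 (limma).

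Tektl1, a tektin-like protein, had signals of 759, 849.5 and 799 in the controls, 703 and 608 at 8 h, and 639, 752 and 456 at 4 d, with the arrays of both treated groups below all controls and overlapping each other. Its adjusted p was 0.214 without and 0.0443 with the block (limma). Tekt3 had 2912, 3127 and 4324 in the controls, 2832 and 3757 at 8 h, and 2708, 2903 and 3050.1 at 4 d. Tekt4 had 3219, 3579 and 4889 in the controls, 3679 and 4953 at 8 h, and 2855, 3468 and 3308 at 4 d. In these the groups overlapped, though each array at 4 d was below its run's control. Tekt5l1 was dim and its groups overlapped, with differences of -0.47, -0.27 and 0.04 in runs 1, 2 and 3, so it was the only tektin not below 0 in every run.

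**Figure D2:**
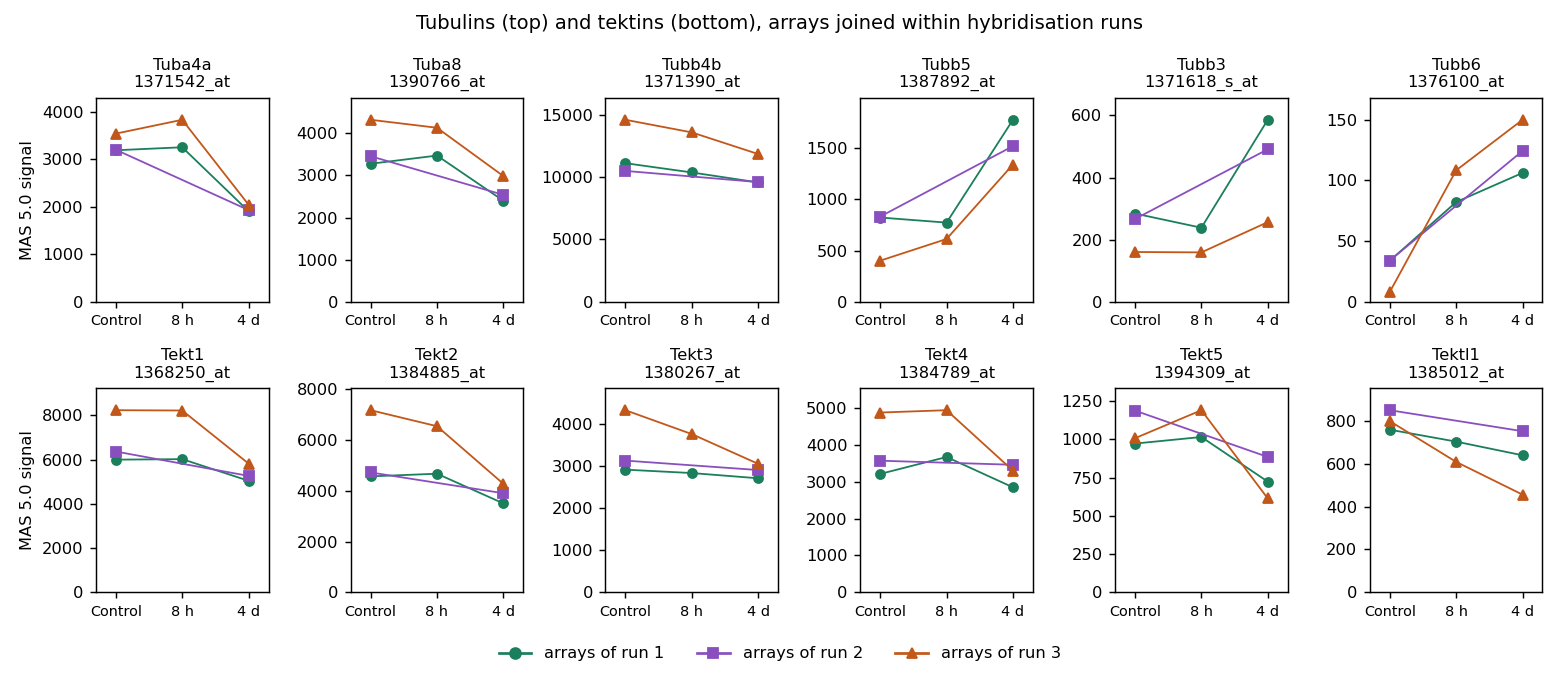
Signal (linear, arbitrary units) of 6 tubulin probe sets in the upper row and 6 tektin probe sets in the lower row for control, 8 h and 4 d, each point 1 array and each line joining the arrays of 1 hybridisation run. In every tektin panel drawn and for Tuba4a, Tuba8 and Tubb4b each line ends at 4 d below its control, while for Tubb5, Tubb3 and Tubb6 each line ends above it. Tekt5l1, which was not lower in run 3 (51.2 in control and 53.3 at 4 d), is not drawn. Tubb1, Tubb2a, Tubb2b and Tubb4a, which gave no call, are also left out.

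The axonemal dynein chains, which form the motor arms of the sperm tail, gave 0 calls among 11 probe sets of 8 genes without a block and 2 lower with it. Their median difference was -0.17, and 10 of 11 were below 0. Dnal1, a light chain of the outer arm, had signals of 804, 690.4 and 926 in the controls, 795 and 942 at 8 h, and 596, 532 and 604 at 4 d on 1397484_at. The arrays at 4 d were below all others, with adjusted p = 0.0757 without and 0.00676 with the block (limma). Its 1378269_at had 127, 96.3 and 189 in the controls, 172 and 163 at 8 h, and 90.9, 95.5 and 149 at 4 d. Its 1388299_at had 150.4, 107 and 115 in the controls, 152 and 89.7 at 8 h, and 70.3, 69.2 and 124 at 4 d. Both were dim with overlapping groups, and their differences were -0.25 and -0.46. Dnai1, an intermediate chain of the outer arm, had signals of 722, 1640.0 and 874 in the controls, 808 and 847 at 8 h, and 688, 571 and 629.6 at 4 d. Control 2 stood apart above all other arrays, and the difference was -0.07, -1.50 and -0.46 within runs 1, 2 and 3, so its call with the block (adjusted p = 0.0423, limma, against 0.14 without) draws most on run 2. The heavy chains Dnah1, Dnah2, Dnah7 and Dnah17, which carry the motor itself, lay between -0.17 and 0.15, and all their groups overlapped.

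The cytoplasmic dynein chains, 9 probe sets of 9 genes, gave 1 higher and 0 lower without a block, and 2 higher and 1 lower with it. Dync1li2, a light intermediate chain that links dynein-1 to its cargo adaptors, had signals of 1129, 1151 and 1195 in the controls, 1254 and 1251 at 8 h, and 1458, 1489 and 1789.9 at 4 d. The 3 groups formed 3 steps that did not overlap, with control lowest. The level was 1158 ± 34.0 (SD, n = 3) in the controls and 1579 ± 183 (SD, n = 3) at 4 d, a difference of 0.44 (SE 0.12, adjusted p = 0.0479, limma), and this call was lost in 15 of 21 alternatives, with adjusted p between 0.0058 and 0.347. Dync1i2, an intermediate chain of dynein-1, had signals of 1496, 1257 and 1460.4 in the controls, 1766 and 1568 at 8 h, and 2048, 1426 and 1999.7 at 4 d and passed only with the block (adjusted p = 0.212 and 0.0141, limma). Dync2i1, an intermediate chain of the dynein-2 motor of intraflagellar transport, had signals of 2139.6, 2157 and 2672 in the controls, 2245 and 2070.0 at 8 h, and 1876, 1950.3 and 1629.9 at 4 d. It lay below control at 4 d on every array and passed only with the block (adjusted p = 0.146 and 0.0463, limma). The heavy chains Dync1h1 and Dync2h1 had differences of 0.16 and -0.07 with overlapping groups.

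The dynein light chains, small subunits that several complexes share, moved in both directions: of 8 probe sets of 7 genes, 2 rose and 1 fell without a block, and 2 rose and 4 fell with it. Dynlt3, of the Tctex family, had signals of 89.6, 96.2 and 113 in the controls, 90.3 and 109.5 at 8 h, and 191, 199 and 235 at 4 d. All arrays at 4 d were above all others and those of control and 8 h overlapped. The level was 99.5 ± 12 (SD, n = 3) in the controls and 208 ± 23.2 (SD, n = 3) at 4 d, a difference of 0.96 (SE 0.17, adjusted p = 0.00784, limma). Dynlrb1, of the roadblock family, had signals of 386, 420.1 and 458 in the controls, 412 and 414 at 8 h, and 715, 672 and 818 at 4 d. Again the arrays at 4 d stood above all 5 others. The level was 421 ± 36 (SD, n = 3) in the controls and 735 ± 75.0 (SD, n = 3) at 4 d, a difference of 0.78 (SE 0.13, adjusted p = 0.00564, limma). Dynlt5, another Tctex family gene, had signals of 1899, 1769.9 and 1906 in the controls, 1758 and 2452 at 8 h, and 821, 884 and 1034 at 4 d. It went the other way, with the arrays at 4 d below all others. The level was 1858 ± 76.8 (SD, n = 3) in the controls and 913 ± 109 (SD, n = 3) at 4 d, a difference of -1.02 (SE 0.15, adjusted p = 0.00293, limma).

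Dynlrb2, the second roadblock gene and a relative of Dynlrb1, had signals of 3752, 3570.1 and 4763 in the controls, 3653 and 4170.2 at 8 h, and 2877, 2839 and 3241 at 4 d. It was lower at 4 d, where Dynlrb1 was higher, and it passed only with the block (difference -0.42, adjusted p = 0.0938 and 0.00172, limma). Dynlt2b, a light chain of dynein-2, had signals of 1211, 997 and 1112 in the controls, 1218 and 1092 at 8 h, and 884, 907 and 752 at 4 d and also passed only with the block (difference -0.38, adjusted p = 0.108 and 0.0217, limma). Dynlt1 was near its control level, at 0.16.

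Among the kinesin light chains, which tie kinesin-1 to its cargo, 1 of 7 probe sets of 4 genes fell without a block and 2 fell with it, both of Klc3. Klc3 is known from elongating spermatids, where it associates with outer dense fibres and mitochondria. Its 1381537_at had signals of 805, 886 and 974 in the controls, 789.7 and 988 at 8 h, and 356, 439.7 and 525 at 4 d. The 3 arrays at 4 d were below all others. The level was 888 ± 84.5 (SD, n = 3) in the controls and 439.9 ± 84.6 (SD, n = 3) at 4 d, a difference of -1.0 (SE 0.17, adjusted p = 0.00524, limma). Its 1388068_at had signals of 640.2, 778 and 632 in the controls, 617 and 686 at 8 h, and 404, 562 and 354 at 4 d. The groups were separate there too, with a smaller difference of -0.64 (adjusted p = 0.0515 without and 0.00255 with the block, limma). Klc1, Klc2 and Klc4, light chains of wider expression, lay between -0.02 and 0.22 and none (0) of their 5 probe sets passed in either fit.

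Of 14 probe sets of 11 kinesins of mitosis and meiosis, 1 fell and 0 rose in both fits. Kif2c, which takes apart microtubule ends at kinetochores, had signals of 2097, 2063 and 2829.8 in the controls, 1933 and 2593 at 8 h, and 821, 952 and 1086 at 4 d on 1369380_at. The arrays at 4 d were far below the other 5. The level was 2330.1 ± 433 (SD, n = 3) in the controls and 953 ± 133 (SD, n = 3) at 4 d. The difference of -1.27 (SE 0.17, adjusted p = 0.00206, limma) was the deepest fall of any member in this fit. The other 10 genes, among them the spindle motor Kif11, the cytokinesis motors Kif20a and Kif23 and the chromosome motor Kif22, had no call, and their probe sets lay between -0.42 and 0.37. None of these had 4 d arrays all above or all below the controls.

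Of 30 probe sets of 17 other kinesin genes, which include the kinesin partners Kifap3 and Kifbp, 1 fell and 0 rose without a block, and 1 fell and 1 rose with it. Kifap3, the non-motor subunit of the kinesin-2 that carries intraflagellar trains, had signals of 1936, 1959 and 1393 in the controls, 2155 and 1973 at 8 h, and 1166, 1308 and 955 at 4 d on 1391618_at. All arrays at 4 d were below all others. The level was 1763 ± 320.4 (SD, n = 3) in the controls and 1143 ± 177 (SD, n = 3) at 4 d, a difference of -0.61 (SE 0.17, adjusted p = 0.0478, limma). This call was lost in 13 of 21 alternatives, with adjusted p between 0.00074 and 0.386. The motor subunits of the same complex, Kif3a and Kif3b, had differences of 0.07 and 0.00 for Kif3a and -0.13 and -0.06 for Kif3b, with overlapping groups. Kif5b, the widely expressed heavy chain of kinesin-1, had signals of 593, 442 and 400.2 in the controls, 665 and 625 at 8 h, and 728, 601 and 897 at 4 d on 1372444_at. The arrays at 4 d were above all controls, and it passed only with the block (difference 0.62, adjusted p = 0.0674 and 0.0144, limma). Its other probe set, 1378096_at, had 240.2, 243 and 94.1 in the controls, 200.1 and 134 at 8 h, and 153, 168 and 177 at 4 d, with overlapping groups and a difference of -0.10.

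**Figure D3:**
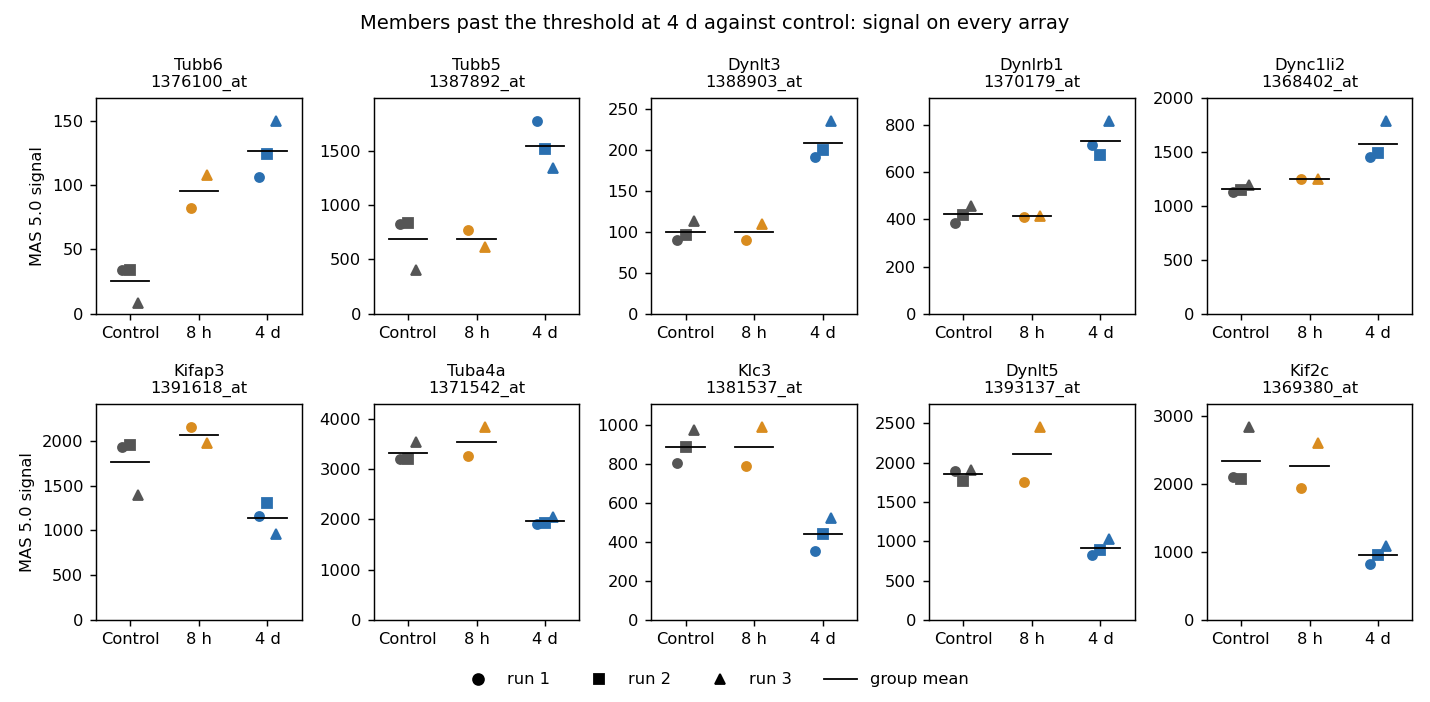
Signal (linear, arbitrary units) on every array of the 10 members that passed the threshold at 4 d against control without a block, those that rose in the upper row and those that fell in the lower. Each point is 1 array, its shape gives the hybridisation run and the bar is the group mean. In every panel the 3 arrays at 4 d lie apart from the 3 controls.

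Several genes were read by more than 1 probe set, and 8 of 19 such genes had probe sets of opposite sign at 4 d. For Kif2c, 1374912_at had signals of 352, 288 and 277 in the controls, 456 and 259.8 at 8 h, and 306, 280.1 and 243 at 4 d. Its groups overlapped and its difference was -0.14, against -1.27 for 1369380_at, so the fall of Kif2c rests on 1 probe set of 2. For Kifap3, 1374462_at had 902, 1049.9 and 837 in the controls, 948 and 772 at 8 h, and 867, 998 and 613 at 4 d. Its 1389556_at had 502, 499 and 464 in the controls, 537 and 564 at 8 h, and 581, 606 and 515 at 4 d. Their differences were -0.19 and 0.21, against -0.61 for the probe set that fell. Dynll2, a light chain of the LC8 family, had 9269, 9074 and 12985 in the controls, 9076 and 11817 at 8 h, and 5671, 5981 and 8059 at 4 d on 1387782_at. Its 1372612_at had 934, 959.5 and 763 in the controls, 1101 and 905 at 8 h, and 973, 1138 and 989.5 at 4 d. The first was below and the second above all controls on every array at 4 d, with differences of -0.66 and 0.22, of which only the first passed, with the block (adjusted p = 0.0575 and 2.58e-05, limma). Kif5b, Tubb4a, Kif11, Kif5a, Kif16b and Kif26b were the other genes with probe sets of opposite sign, and for Kif5b the probe set that passed with the block had 0.62 against -0.10. The probe sets of Klc3 and of Tubb5 each moved in 1 direction. Where in its transcript each probe set lies was not analysed here.

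**Figure D4:**
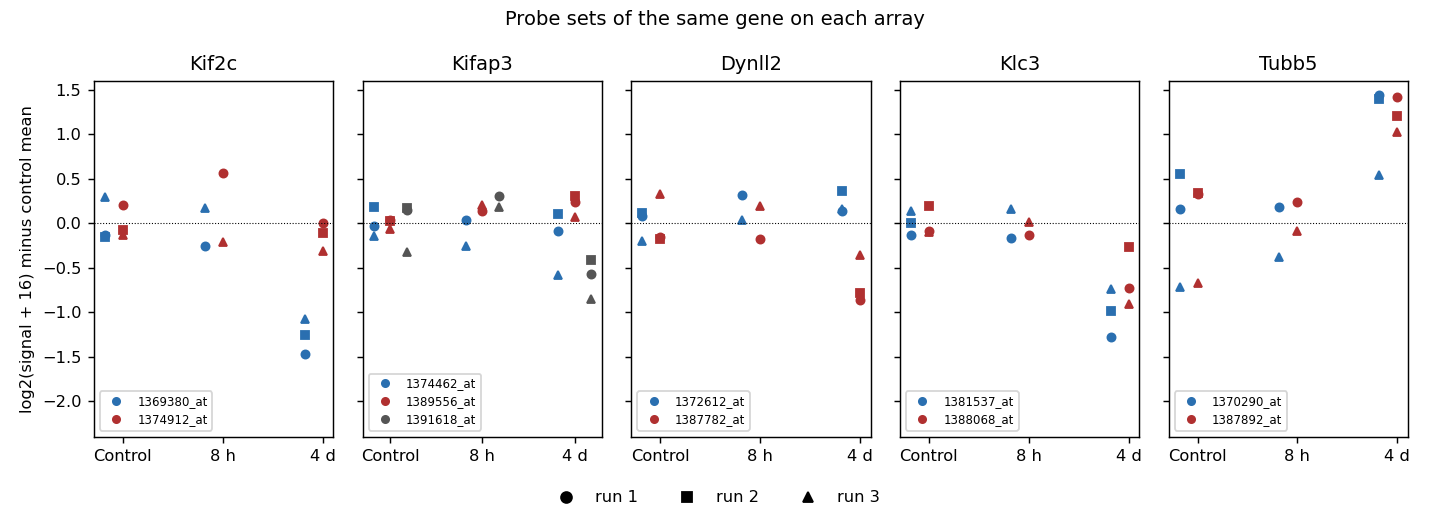
Log2(signal + 16) minus the mean of the 3 controls, on every array, for 5 genes with more than 1 probe set, colour giving the probe set and shape the hybridisation run. At 4 d the probe sets of Kif2c, Kifap3 and Dynll2 part from each other, while those of Klc3 and Tubb5 lie on the same side of 0.

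The comparison of 8 h with control, which addressed the early response, gave 0 member calls in either direction (limma), with and without the run as a block. Among all probe sets tested 0.0656% passed without a block, all of them higher, and 0.278% with it. The median difference of the members was -0.02, against -0.01 over all probe sets. At an unadjusted p under 0.05, 1 member was higher of 104 (background 2.45%) and 1 lower (background 1.46%). The higher one was Tubb6, with both arrays above all controls (signals given above), a difference of 1.5 (SE 0.35, adjusted p = 0.366, limma). Since Tubb6 became a member through treated arrays alone, its place here is a description only. The lower one was 1393635_x_at of Tubb4a, at -1.07 (SE 0.45, adjusted p = 0.9999, limma).

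The comparison of 4 d with 8 h asked which members changed between the times. Without a block 3 were higher (background 3.58%) and 5 lower (background 2.47%), and the blocked fit called 7 higher (background 8.55%) and 16 lower (background 7.08%). This comparison shares the 4 d arrays with the comparison against control. Tubb5 rose by 1.14 (SE 0.29, adjusted p = 0.0479, limma), Dynlt3 by 0.95 and Dynlrb1 by 0.80. Kif2c had -1.23, Dynlt5 -1.18, Klc3 -1.0, Kifap3 -0.85 and Tuba4a -0.84 for 4 d minus 8 h. Tubb6 had 0.36 and did not pass (adjusted p = 0.685, limma), its signals at 8 h lying between those of control and 4 d with 8 h 2 above 4 d 1. Dync1li2 passed only with the block (adjusted p = 0.223 and 0.0488, limma). The 3 higher calls were all lost when 4 d 1 or run 2 was left out, and 3 to 6 lower calls were made when 1 control or 4 d array was left out. Leaving out an array at 8 h leaves 1 there, so those calls are not given.

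**Figure D5:**
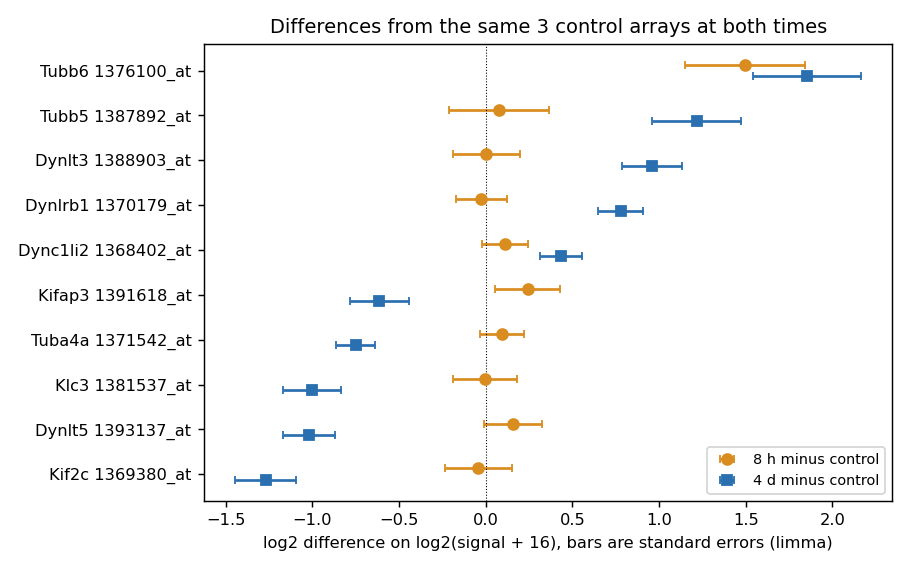
Log2 difference from the 3 control arrays at 8 h (circles) and at 4 d (squares) for the 10 members that passed at 4 d, with bars for the standard error from limma. At 8 h Tubb6 stands at 1.5 and the others lie near 0, and at 4 d all 10 lie away from 0.

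Other genes of microtubules were counted from lists outside the members, 1 probe set a gene, at 4 d against control. Of all probe sets tested, 6.13% were higher and 3.71% lower without a block, and 13.3% and 9.17% with it. Whether any list departs from these shares was not tested. Of 31 genes of the axoneme, dynein assembly and radial spokes, 2 fell and 0 rose, with a median of -0.18: Cfap100, an inner-arm factor (-0.98 ± 0.17, SE, adjusted p = 0.00567, limma), and Gas8, of the nexin-dynein regulatory complex (-0.64 ± 0.15, adjusted p = 0.0262). In the blocked fit 9 fell and 1 rose. Of 26 intraflagellar transport genes 0 passed, and the smallest p was that of Ift172 (-0.41 ± 0.12, adjusted p = 0.0622, limma), while 4 were lower and 1 higher with the block. Of 20 genes listed for dynactin and dynein regulators 1 rose and 1 fell (3 and 1 with the block). Both that passed without it code for actin capping proteins: Capza2 had 0.56 ± 0.13 and Capza3, the capping protein of germ cells, -0.55 ± 0.12.

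Of 24 genes of tubulin folding and modification, 4 fell and 1 rose. The tubulin ligases Ttll3 and Ttll7 had -1.20 ± 0.19 and -0.84 ± 0.21, and Vash2, which removes the last tyrosine of alpha tubulin, -1.06 ± 0.14, with Ttll9 the other one that fell. The folding cofactor Tbcd had 0.76. Of 40 microtubule-associated, severing and end-binding genes, 3 fell (Mapt, the tau protein, at -0.98 ± 0.16, with Tppp and Camsap3) and 2 rose (Tacc1 at 0.61 ± 0.15 and the end-binding protein Mapre1 at 0.47 ± 0.11). With the block 7 fell and 1 rose in the former list and 7 fell and 4 rose in the latter. At 8 h, 0 genes of these 5 lists passed in either direction.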

How the data were processed

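The authors deposited 1 table of linear signal intensity values, 1 for each probe set and array, made with MAS 5.0 per the labels' design text, which also names GeneSpring 7.2; all arrays had a 2% trimmed mean of 250. Per the labels' protocols, RNA came from frozen testis by Trizol and RNeasy and was labelled with biotin. No detection calls were used, and the number of arrays limits the precision.

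The signals were not scaled again. Log2(signal + 16), which understates changes of dim probe sets, was fitted on all 8 arrays with limma 3.58.1 in R 4.3.3 (lmFit, eBayes with a trend, group only), for probe sets of 50 or more on 2 or more arrays, with Benjamini-Hochberg adjustment over 19808 probe sets at 0.05. The script was tested on simulated data.

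Of 31042 probe sets, 20826 had 1 symbol in the array's platform annotation, 436 several and 9780 none. All 104 member gene identifiers matched RefSeq, and 0 symbols changed. Arrays of the same run, taken from the hybridisation records in the settings files, deviated together from their group means (r = 0.353 to 0.506, against -0.475 to 0.246 for other pairs), so the numbers in the titles pair control with 4 d, while 8 h 2 belongs to run 3. Alternatives were the constant, the minimum, quantile normalization, equal medians, the run or title number as a block, no trend, 2 groups only, and leaving out each array or, added after the data were seen, each run.

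The members and lists were chosen with earlier results of these data known. Values on every array are given for members past the threshold (up to 12 rises and 12 falls at 4 d, up to 6 each otherwise), all probe sets of those genes, all alpha and beta tubulins, and the smallest p of a family without a call. Of the outside lists, up to 3 genes with the largest changes, or the smallest p, are named. Other members, the fourth genes of a list, and members past the threshold only with the run as a block were named after their values were seen. Promoters are from RefSeq, GRCr8, first entry where a gene has several (4 genes), and positions count back from the start.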

Additional observations from a re-analysis of the deposited data

Results flagged for a closer look

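The difference from control was not the same at 8 h and 4 d for 8 members, by the test of 4 d against 8 h in limma. For 3 of them 4 d was higher than 8 h. Tubb5 differed by 1.14 on the log2 scale (adjusted p = 0.0479, limma), with all 3 arrays at 4 d above both at 8 h. Dynlt3 differed by 0.95 on the log2 scale (adjusted p = 0.0201, limma), with all 3 arrays at 4 d above both at 8 h. Dynlrb1 differed by 0.80 on the log2 scale (adjusted p = 0.0134, limma), with all 3 arrays at 4 d above both at 8 h. For the other 5 it was lower. For Kif2c the difference was -1.23 (adjusted p = 0.00761, limma), with all 3 arrays at 4 d below both at 8 h. For Dynlt5 the difference was -1.18 (adjusted p = 0.00434, limma), with all 3 arrays at 4 d below both at 8 h. For Klc3 the difference was -1.0 (adjusted p = 0.0142, limma), with all 3 arrays at 4 d below both at 8 h. For Kifap3 the difference was -0.85 (adjusted p = 0.0283, limma), with all 3 arrays at 4 d below both at 8 h. For Tuba4a the difference was -0.84 (adjusted p = 0.00604, limma), with all 3 arrays at 4 d below both at 8 h. All of these but Dynlt5 lost the call without run 2. Tubb5 also lost it with 4 as the constant, with no minimum or with no trend. Dynlt3 lost it with quantile normalization or equal medians, Dynlrb1 with equal medians and Kifap3 with no trend. Other probe sets had -0.31 for Kif2c, -0.08 and 0.04 for Kifap3, -0.57 for Klc3 and 1.22 for Tubb5, and none of these passed without a block. Leaving out run 1 leaves 1 array at 8 h, so its calls are not given, and the cause of the differences was not tested.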

How the results depend on the processing

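No member changed the sign of a called difference under any alternative run. At 4 d against control the counts of higher and lower members (5 and 5) were 9 and 19 with the run as a block, 9 and 14 with the title number as a block, 0 and 0 without run 1 (8 and 9 at an unadjusted p under 0.05), 1 and 1 without run 2, and 3 to 6 and 4 to 6 with 1 array left out. Of all 19808 probe sets, 2116 were higher and 1376 lower with the title number as a block. With 1 control or 4 d array left out, 580 to 1022 were higher and 315 to 620 lower. Lower members numbered 8 with quantile normalization and 8 without run 3, against 985 and 869 of all probe sets (735 in the main fit). The median of -0.09 was -0.23 with equal medians, which moved the median of all probe sets from 0.04 to -0.10, and -0.10 to -0.017 with 1 array left out. At 4 d against 8 h the counts (3 and 5) were 7 and 16 with the run as a block and 6 and 16 with the title number. Of all 19808 probe sets, 1694 and 1403 passed with the run and 1489 and 1053 with the title number. Without run 2 they were 0 and 1 (4 and 11 at an unadjusted p under 0.05), against 206 and 132 of all 19808 probe sets. With 1 control or 4 d array left out they were 0 to 4 and 3 to 6, against 262 to 875 and 154 to 626 of all 19808 probe sets. Leaving out run 1 leaves 1 array at 8 h, so its counts are not given. Higher members numbered 1 with equal medians and lower members 8 with quantile normalization, against 411 and 651 of all 19808 probe sets. The median of 0.02 was -0.12 with equal medians and -0.089 to 0.064 with 1 array left out. It was -0.067 within run 1 and -0.034 within run 3, so it was below 0 in both runs that hold 8 h and 4 d arrays. At 8 h against control the counts stayed 0 in all alternatives. Leaving out an array at 8 h leaves 1, which is assumed to vary like the other groups. Leaving out run 1 or run 2 removes samples; otherwise the cause was not tested. Of the members called at 4 d, Tubb6 and Kif2c lost the call only without run 1, Dynlt3, Dynlrb1, Dynlt5, Klc3 and Tuba4a without run 1 or run 2, and Tubb5 also without 4 d 1. The control signals of Tubb6 were all below the minimum.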
